A study of Mus musculus with 82 samples.

Results

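The genes described here are the 4 mouse MiT/TFE transcription factors, Mitf, Tfeb, Tfe3 and Tfec, and the 3 genes of the folliculin complex, Flcn, Fnip1 and Fnip2. They were chosen by name, matching symbols without regard to case, and are 7 of the 78308 gene symbols found in any of the 8 count tables of the study and of the 14872 found in all of them. Each of the 7 was present in every table. RNA was sequenced from 82 libraries of mouse sciatic nerve, the large mixed nerve of the leg, in 22 groups of 3 to 6 libraries. The shallowest library had 15438812 estimated counts and the deepest 34531452.

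The count tables are called datasets 1 to 8 here. Dataset 1 held Fig4 +/+ and Fig4 -/- nerves at postnatal day 12 (P12), and dataset 2 the same genotypes at P4, with 3 libraries per group. Fig4 is a phosphoinositide phosphatase of late endosomes and lysosomes. Dataset 3 held 5 libraries labelled DhhCre and 5 labelled Mitf at P21, and dataset 4 held 3 labelled Egr2Cre and 3 labelled Mitf at P12. DhhCre and Egr2Cre name Cre recombinases driven from Dhh and Egr2, genes of the Schwann cell lineage. Dataset 5 held nerves labelled Mitf, 4 uninjured and 4 at 3 days post injury, with no age in the labels. Dataset 6 held wild type and Mutant nerves at 3, 7 and 14 days post injury, 3 libraries per group, and its labels give neither the mutated gene nor an age. Dataset 7 compared 3 nerves with the label Egr2Cre Mitf and 3 with the label Mitf. Dataset 8 had 4 groups, namely 6 controls, 6 libraries with the label Mitf, 5 with Ndrg1 and 5 with Mitf-Ndrg1. Neither of these last datasets has an age or an injury in its labels. Ndrg1 encodes a protein of the Schwann cell cytoplasm that myelinated nerves need. The labels leave unsaid whether Mitf, DhhCre, Egr2Cre or Mutant alone means that the Mitf gene is altered, so every direction is by label. They also do not tell whether the samples of a group are separate animals, so the p-values reflect sample-to-sample spread that may be technical.

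MiT/TFE proteins are basic helix-loop-helix leucine zipper factors that bind E-box sequences in genes of lysosomes, autophagy and, for Mitf, pigment cells. When nutrients are plentiful, folliculin, the product of Flcn, works with Fnip1 or Fnip2 at the lysosome as a GTPase-activating protein for RagC and RagD, which lets mTORC1 phosphorylate Tfeb and Tfe3 and hold them in the cytoplasm. Much of the control of these factors is therefore by phosphorylation and location, which RNA levels do not measure. Tfec is known from macrophages and osteoclasts, and Mitf from melanocytes, mast cells and osteoclasts.

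On the mouse build mm10 (GENCODE vM21) Mitf spans chr6:97807052-98021349 (plus strand) and Tfec chr6:16833373-16898441 (minus strand). Tfeb spans chr17:47737030-47792419 and Tfe3 chrX:7762560-7775202, both on the plus strand. Flcn spans chr11:59791408-59810016 (minus strand), Fnip1 chr11:54438199-54518235 (plus strand) and Fnip2 chr3:79455974-79567796 (minus strand). All 7 are protein-coding, and no exon of theirs overlaps an exon of another gene. All 7 matched the RefSeq table of start-site windows (GRCm38.p6; 250 bases before to 50 after each start), with 12 windows in all. The 4 stretches of 120 bases upstream of a start printed here belong to the members that were higher together in the Ndrg1 libraries described further on. Each is written 5′ to 3′ in the direction of its gene, and capitals mark a CACGTG E-box.
Tfec, chr6:16898442-16898561, minus strand: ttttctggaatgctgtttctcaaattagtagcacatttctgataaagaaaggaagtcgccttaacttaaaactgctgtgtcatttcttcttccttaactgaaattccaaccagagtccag
Flcn, chr11:59810040-59810159, minus strand: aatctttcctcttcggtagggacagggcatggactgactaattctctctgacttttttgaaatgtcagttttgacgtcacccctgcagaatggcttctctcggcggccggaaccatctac
Fnip1, chr11:54438059-54438178, plus strand: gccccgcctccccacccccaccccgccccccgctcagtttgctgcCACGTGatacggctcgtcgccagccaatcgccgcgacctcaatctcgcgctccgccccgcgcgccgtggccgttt
Fnip2, chr3:79567797-79567916, minus strand: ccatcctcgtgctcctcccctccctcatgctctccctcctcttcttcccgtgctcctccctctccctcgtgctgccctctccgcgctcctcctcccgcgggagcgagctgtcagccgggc

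The windows were searched on both strands for CACGTG, the palindromic E-box, TCATGTG, a form of the M-box, TGANTCA, the AP-1 site, and the palindromic core of the CLEAR element, which contains CACGTG. Of 32851 windows of the same length over all genes, 7.15% held CACGTG, 3.77% TCATGTG, 7.81% TGANTCA and 0.326% the CLEAR core. Among the 12 windows of the members there were 2 matches, a CACGTG 75 bases before the Fnip1 start and a TGANTCA 34 bases after a Tfe3 start. The Fnip2 stretch lies 117 bases farther from the RefSeq start, since the bases between are inside a GENCODE transcript. A match is a description of the letters and not of binding.

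Levels are given as CPM, counts scaled to a library size corrected by TMM, and per kilobase of the longest coding transcript where genes are compared with each other. The datasets were normalized separately, so levels set across them are descriptions. Tfe3 had the highest level per length of the 4 factors in 21 of the 22 groups, with group means from 12.3 to 28.9 CPM per kb. Tfec, from 0.107 to 2.31 CPM per kb, was the lowest in all groups except the 6 of the injury time course, where Mitf was lower than Tfec. The exception was the Mitf group of dataset 7, where Tfeb made up 48.8% of the summed CPM per kb of the 4 factors and Tfe3 41.4%. Tfeb ranged from 1.7 to 15.6 and Mitf from 0.698 to 5.2 CPM per kb. With the mean length of coding transcripts in place of the longest, Tfeb led in the time course at 14 days in wild type nerves, in both groups of dataset 7, in all groups of dataset 8 and in both groups of dataset 5.

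**Figure D1:**
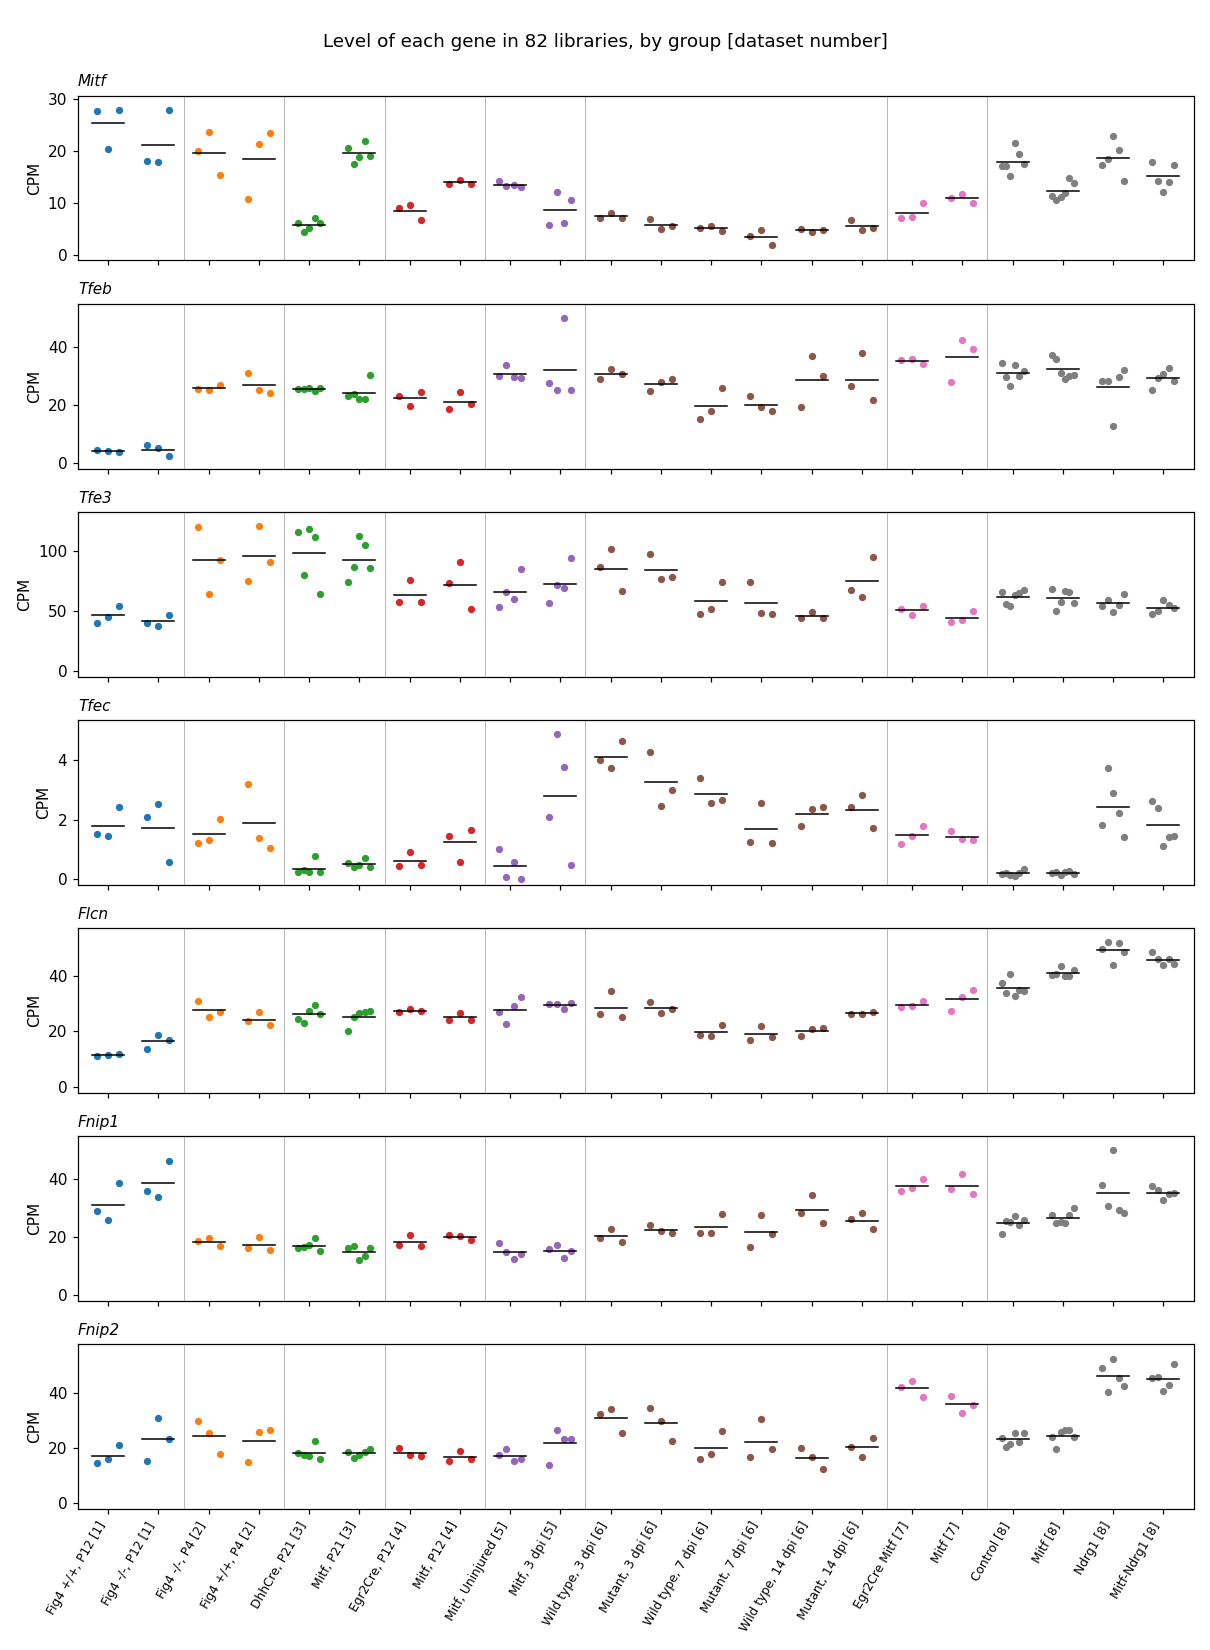
CPM of each gene (vertical axes, from 0) in all 82 libraries, by group with the dataset number in brackets; points are libraries and lines are group means. Tfeb in dataset 1 (means of 3.99 and 4.51 CPM) lies below every other group, and Mitf is lowest in the Mutant group at 7 days of dataset 6. Tfec is low in the control and Mitf groups of dataset 8 and higher in the Ndrg1 and Mitf-Ndrg1 groups of that dataset.

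The order of groups differed from gene to gene. Mitf was highest in Fig4 +/+ nerves at P12 (25.4 ± 4.28 CPM; SD, n = 3) and lowest in Mutant nerves at 7 days (3.41 ± 1.4; SD, n = 3). Tfeb was highest in the Mitf group of dataset 7 (36.4 ± 7.46; SD, n = 3) and lowest in Fig4 +/+ nerves at P12 (3.99 ± 0.388; SD, n = 3). Tfe3 ran from 41.5 ± 4.63 CPM in Fig4 -/- nerves at P12 (SD, n = 3) to 98 ± 24.4 in DhhCre nerves at P21 (SD, n = 5).

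Tfec had the widest range, from 0.19 ± 0.0901 CPM in the controls of dataset 8 (SD, n = 6) to 4.12 ± 0.467 in the wild type group 3 days post injury (SD, n = 3). Flcn ran from 11.5 ± 0.438 CPM in Fig4 +/+ nerves at P12 (SD, n = 3) to 49.2 ± 3.25 in Ndrg1 libraries (SD, n = 5). Fnip1 ran from 14.8 ± 2.26 CPM in uninjured nerves of dataset 5 (SD, n = 4) to 38.7 ± 6.8 in Fig4 -/- nerves at P12 (SD, n = 3). Fnip2 ran from 16.4 ± 3.84 in the wild type group 14 days post injury (SD, n = 3) to 45.9 ± 4.87 in Ndrg1 libraries (SD, n = 5). Neighbours in the order of the 22 groups mostly did not differ beyond their spread: of 21 neighbour pairs per gene, 4 were apart by more than their summed SDs for Flcn, 1 each for Mitf and Tfeb, and none for Tfe3, Tfec, Fnip1 and Fnip2.

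Dataset 1 stood apart in its levels. Its Tfeb values were 4.39, 3.97 and 3.62 CPM in Fig4 +/+ and 5.99, 5.24 and 2.3 in Fig4 -/- nerves, against 18.7 to 24.6 CPM over the 6 libraries of the other P12 dataset, and its Flcn values of 11 to 18.6 CPM were below the 24.1 to 28 of that dataset. Mitf and Fnip1 were displaced the other way. Mitf stood at 17.8 to 27.9 CPM in dataset 1 against 6.72 to 14.5 in the other P12 dataset, and Fnip1 at 26 to 46.4 against 16.9 to 20.7. Tfe3 had a lower mean in dataset 1 (43.9 against 67.7 CPM), with overlap, and Tfec and Fnip2 overlapped too. The 2 datasets differ in genotype and in the number of gene rows (51444 and 53278). Datasets 5 and 6 also had 51444 rows, with mean Tfeb of 31.2 and 25.7 CPM and mean Flcn of 28.7 and 23.7 CPM. What sets the levels of dataset 1 was not tested.

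**Figure D2:**
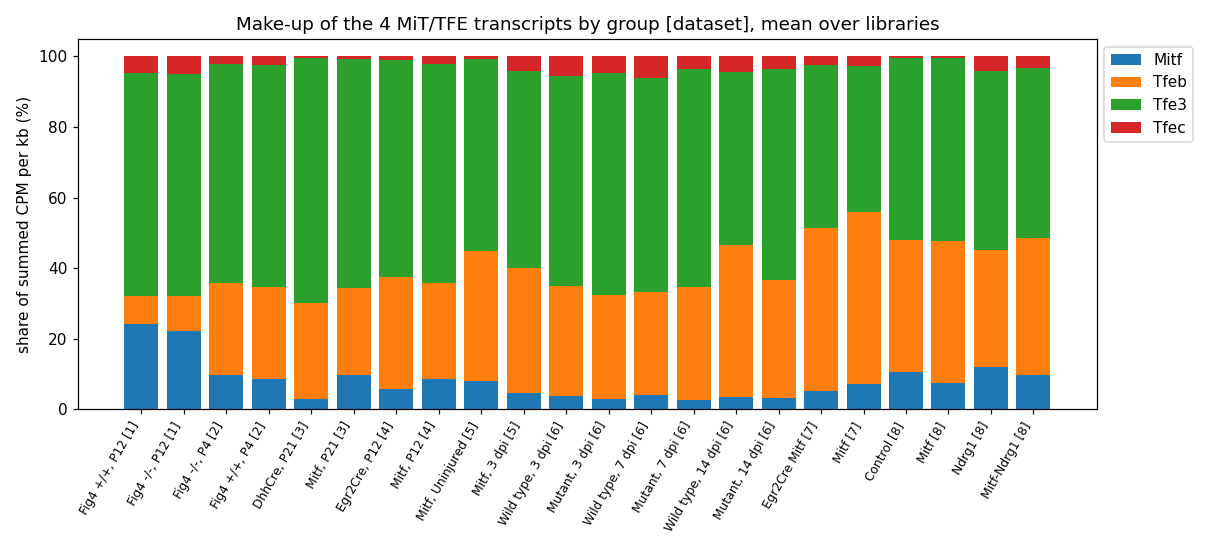
Share of each MiT/TFE factor in the summed CPM per kb of the 4 (vertical axis, percent, mean over libraries), by group with the dataset number. Tfe3 takes 41.4% to 69.5%, Mitf 2.61% to 24.2% and Tfec 0.301% to 5.98%.

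The nerve's own markers and those of other cells moved between tables and groups, and in bulk tissue fewer cells of a type cannot be told apart from less RNA per cell. None of the 10 Schwann cell markers or the 12 macrophage markers was at 0 in any group. The summed level of the Schwann cell markers was 820 to 3880 CPM in 17 of the 18 libraries of dataset 6, against 38371 to 227260 CPM over datasets 1 to 5 and 22464 to 33085 CPM in dataset 7. The remaining library of dataset 6, Mutant replicate 1 at 7 days, had 12982 CPM, against 1585 and 1264 CPM in the other 2 libraries of its group. The 8 skeletal muscle markers summed to between 5.2 and 142728 CPM in dataset 6, and 28 of the 82 libraries held both Xist and the Y-linked Ddx3y at 1 CPM or more.

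Of 146 tests of a member in a comparison, 16 passed an adjusted p under 0.05 over all genes (edgeR quasi-likelihood, Benjamini-Hochberg): 5 for Flcn, 3 each for Mitf and Tfec, 2 each for Fnip1 and Fnip2, 1 for Tfeb and 0 for Tfe3. Each change is a difference in log2 level, written as the group named first minus the other. Of the 16 calls, 9 were in the 2 comparisons with the Ndrg1 label, where 60.5% and 57.6% of all genes were called. Another 6 were in the injury time course, in comparisons where 39.1%, 33.4% and 17.7% of all genes were called. The counts of members are to be read beside these shares.

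**Figure D3:**
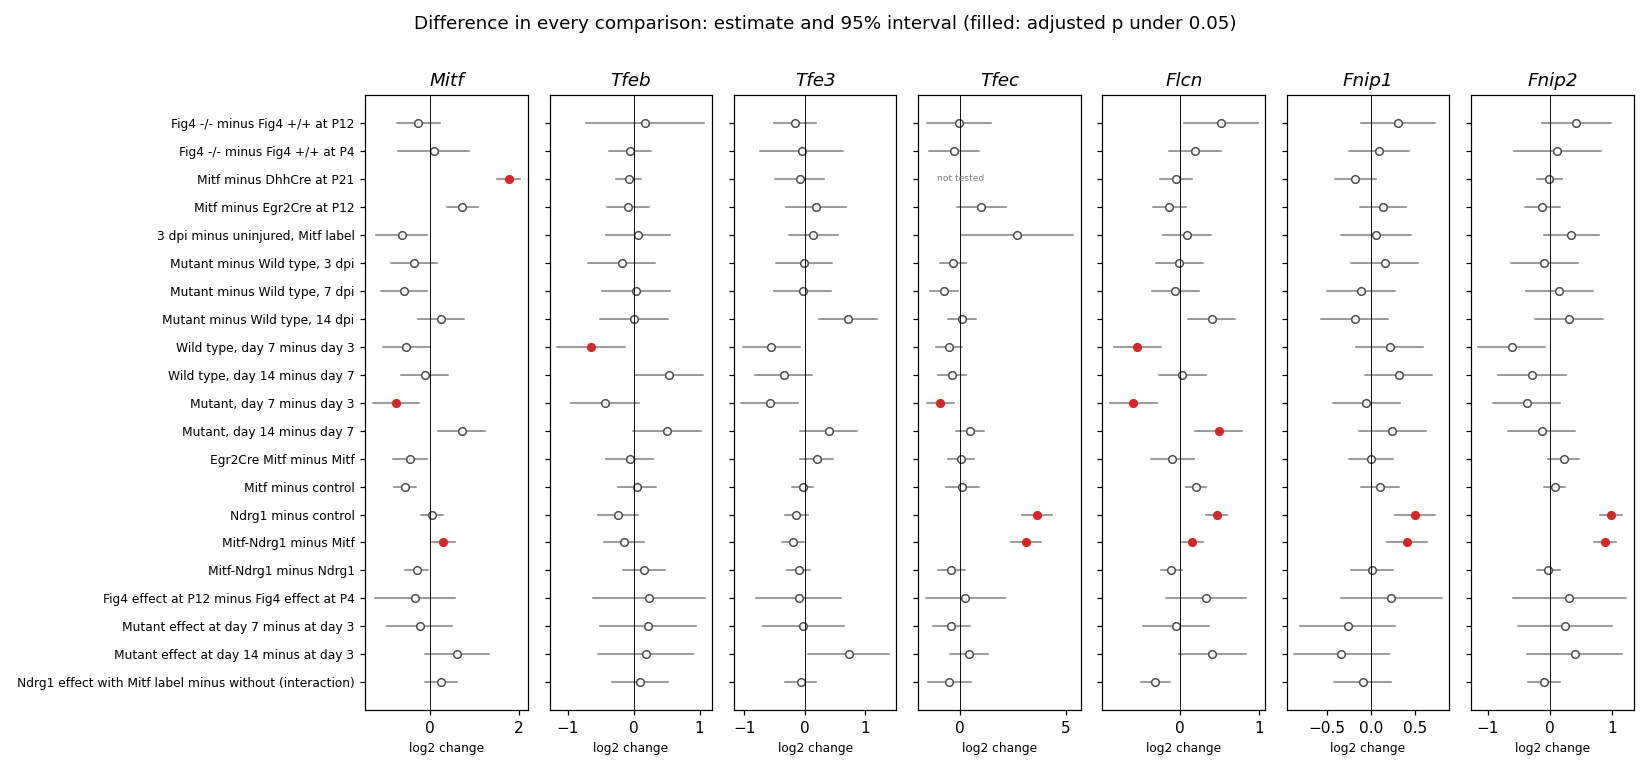
Log2 change (horizontal axes) of each gene in the 17 pairwise comparisons and 4 interactions, with 95% intervals; filled points passed the test. The calls sit in the P21 dataset for Mitf, in the time course for Mitf, Tfeb, Tfec and Flcn, and in the Ndrg1 comparisons for Tfec, Flcn, Fnip1, Fnip2 and Mitf.

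Mitf was higher in libraries labelled Mitf than in those labelled DhhCre at P21. It stood at 6.09, 4.31, 5.07, 7.02 and 6.16 CPM in the DhhCre libraries and at 20.6, 17.6, 18.9, 22 and 19.1 CPM in the Mitf libraries. The groups did not overlap, which held for 0.488% of all genes. The change was 1.77 (SE 0.12, edgeR adjusted p = 2.95e-05), a 3.42-fold higher level under the Mitf label (95% interval 2.84 to 4.11). It was 1 of 2 genes called among all 13943 tested (0.0143%). The other 5 tested members lay between -0.18 (Fnip1, SE 0.11) and -0.01 (Fnip2, SE 0.09), none of them called, and Tfec did not pass the low-count filter, with 4 to 14 counts per library.

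The comparison of the same 2 kinds of label at P12 had a smaller estimate in the same direction. Mitf stood at 9.03, 9.56 and 6.72 CPM in the Egr2Cre libraries and at 13.7, 14.5 and 13.7 in the Mitf libraries, without overlap. Flcn did not overlap either (26.9, 28 and 27.3 against 24.3, 26.7 and 24.1 CPM, a change of -0.13, SE 0.09), and 6.82% of all tested genes did not. The Mitf change of 0.73 (SE 0.15, 95% interval 0.38 to 1.08) had an unadjusted p of 0.00151 and an edgeR adjusted p of 1. By edgeR 0 of 7 members was called (0.0139% of all genes were), 1 had an unadjusted p under 0.05, and DESeq2 called 0. Tfec had the largest estimate, 1.00 (SE 0.49, 95% interval -0.14 to 2.15), on 9 to 31 counts per library.

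In dataset 7, Mitf stood at 7.02, 7.26 and 9.9 CPM in the Egr2Cre Mitf libraries and at 11, 11.8 and 10.1 in the Mitf libraries. The change was -0.45 (SE 0.17, edgeR adjusted p = 0.846), and the groups did not overlap, as for 9.28% of all genes. No member was called in this comparison, where 0% of all genes were, and 1 had an unadjusted p under 0.05; DESeq2 called 0. Mitf had no adjusted p under 0.05 in either Egr2Cre comparison, and the difference between those 2 comparisons and the P21 comparison was not tested.

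Dataset 8 gave a further comparison by the Mitf label, here against controls. The level of Mitf was 15.2, 17.3 and 21.6 CPM (lowest, median and highest of 6) in controls and 10.5, 11.6 and 14.7 CPM in the Mitf libraries, and the groups did not overlap, as for 0.541% of all genes. The change was -0.55 (SE 0.12, 95% interval -0.80 to -0.31, unadjusted p = 8.9e-05, edgeR adjusted p = 0.236), while DESeq2 gave an adjusted p of 0.0206. Of the comparisons by this label against a Cre label or control, only that of dataset 3 passed the test for Mitf by edgeR. A gene-level count sums reads over all exons and does not show whether part of a gene is deleted.

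Of the other members, Flcn was 0.20 higher under the Mitf label (SE 0.06, unadjusted p = 0.00281, edgeR adjusted p = 0.666). It stood at 32.6, 34.7 and 40.7 CPM in controls and 39.9, 40.5 and 43.5 CPM in Mitf libraries, which overlapped. Tfeb, Tfe3, Tfec, Fnip1 and Fnip2 lay between -0.03 and 0.10. By edgeR 0 of 7 members was called (0.00629% of all genes), 2 had an unadjusted p under 0.05, and DESeq2 called 1. Those 2 were Mitf and Flcn.

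The Ndrg1 libraries had higher Tfec, Flcn, Fnip1 and Fnip2 than the controls, whereas no change was called for Mitf, Tfeb or Tfe3. Of 7 members 4 were higher and 0 lower, where 60.5% of all 15910 genes were called, 30.8% higher and 29.7% lower, and 41.9% had groups that did not overlap. The members' median change was 0.46, against 0.02 over all genes.

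Tfec, the factor known from macrophages, stood at 0.0894, 0.181 and 0.348 CPM (lowest, median and highest) in controls and at 1.81, 3.74, 2.88, 2.21 and 1.42 CPM in the 5 Ndrg1 libraries. Every Ndrg1 library was above every control. The controls had 2 to 7 counts each and the Ndrg1 libraries 29 to 90. All control counts were under the filter's minimum of 10. Tfec thus entered the test through the libraries with the Ndrg1 label, where it was high, and its fold is against a level near the floor. The change was 3.64 (SE 0.35, edgeR adjusted p = 2.86e-09), or 12.4-fold (95% interval 7.58 to 20.4).

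Fnip2, one of the folliculin partners, stood at 20.3, 23.1 and 25.6 CPM in controls (lowest, median and highest) and at 48.9, 40.2, 52.4, 45.5 and 42.6 CPM in Ndrg1 libraries, again with no overlap. It rose by 0.99 (SE 0.09, edgeR adjusted p = 7.85e-10), or 1.99-fold. Flcn stood at 32.6, 34.7 and 40.7 CPM in controls and at 49.7, 52, 44, 51.7 and 48.7 CPM in Ndrg1 libraries. Its rise of 0.46 (SE 0.06, edgeR adjusted p = 8.28e-07) was smaller, also with no overlap.

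Fnip1 stood at 21.1, 25.5 and 27.4 CPM in controls and 37.8, 30.7, 49.9, 29.5 and 28.4 CPM in Ndrg1 libraries, which did not overlap. Its rise was 0.50 (SE 0.11, edgeR adjusted p = 0.000408), and replicate 3, the highest library, left the gene called when it was left out. The level of Fnip2 per length relative to that of Fnip1 was 0.799 ± 0.101 in controls (SD, n = 6) and 1.15 ± 0.169 in Ndrg1 libraries (SD, n = 5). Tfeb was at -0.24 (SE 0.15), Tfe3 at -0.14 (SE 0.09) and Mitf at 0.05 (SE 0.12). Their 95% intervals ran from -0.54 to 0.07, from -0.32 to 0.05 and from -0.20 to 0.30. Ndrg1 replicate 3, the highest library for Fnip1, was the lowest for Tfeb (12.7 CPM, next 28.1). With each library left out in turn, the Tfeb change ran from -0.30 to -0.07.

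**Figure D4:**
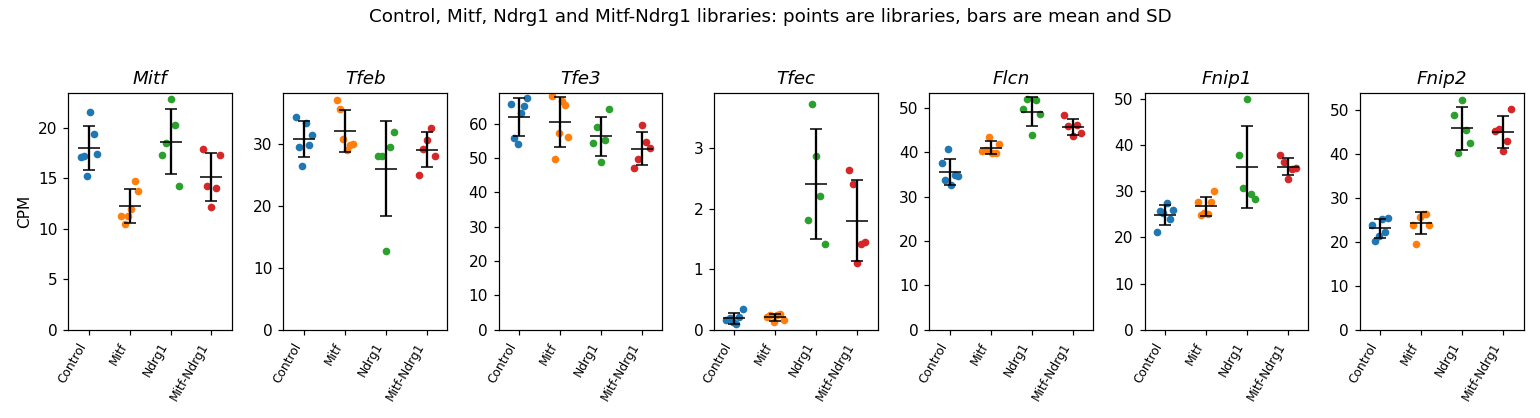
CPM (vertical axes, from 0) of each gene in control, Mitf, Ndrg1 and Mitf-Ndrg1 libraries; points are libraries, bars the mean and SD. Tfec, Fnip1, Fnip2 and Flcn lie higher in every Ndrg1 library than in every control, and Mitf lies lower in every Mitf library than in every control.

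The same 4 genes were higher in Mitf-Ndrg1 than in Mitf libraries, and Mitf was too: 5 of 7 members were higher and 0 lower, where 57.6% of all genes were called, 29.7% higher and 27.9% lower, and 40.5% had groups that did not overlap. Tfec stood at 0.12, 0.225 and 0.256 CPM in Mitf libraries (lowest, median and highest) and at 2.64, 2.4, 1.11, 1.42 and 1.45 CPM in Mitf-Ndrg1 libraries, a change of 3.13 (SE 0.34, edgeR adjusted p = 3.51e-08). Fnip2 went from 19.6, 24.8 and 26.4 CPM to 45.3, 45.9, 40.8, 43 and 50.4 CPM, a change of 0.89 (SE 0.09, edgeR adjusted p = 5.63e-09). Neither gene's groups overlapped. Tfec had 3 to 6 counts per Mitf library, so here too it passed the low-count filter through the libraries with the Ndrg1 label.

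Fnip1 rose by 0.40 (SE 0.11, edgeR adjusted p = 0.0031), from 24.8, 26.4 and 30.1 CPM to 32.7, 35.1 and 37.8 CPM. Flcn rose by 0.16 (SE 0.06, edgeR adjusted p = 0.0383), from 39.9, 40.5 and 43.5 CPM to 43.8, 45.9 and 48.4 CPM. Mitf rose by 0.31 (SE 0.12, edgeR adjusted p = 0.0368), with overlapping libraries of 10.5 to 14.7 and 12.1 to 17.9 CPM. The calls of Flcn and Mitf were close to the threshold. That of Flcn was lost with the replicate number as a block (0.15, adjusted p = 0.0711), without the low-count filter (0.15, adjusted p = 0.0575) and without Mitf replicate 1, 2, 4 or 5 or Mitf-Ndrg1 replicate 1, 2 or 4 (0.13 to 0.15, adjusted p = 0.0548 to 0.099). That of Mitf was lost without Mitf replicate 1, 2, 3 or 4 or Mitf-Ndrg1 replicate 1 or 5 (0.24 to 0.30, adjusted p = 0.059 to 0.126). Tfe3 had an estimate in the other direction (-0.20, SE 0.09, edgeR adjusted p = 0.0594). It was called lower with the muscle covariate (-0.21, adjusted p = 0.0334), without Mitf replicate 2 (-0.25, adjusted p = 0.015) and without Mitf-Ndrg1 replicate 3 (-0.25, adjusted p = 0.0293).

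The Mitf-Ndrg1 libraries were not called different from the Ndrg1 libraries in any member (edgeR 0 of 7, where 1.47% of all genes were called; 1 had an unadjusted p under 0.05 and DESeq2 called 0). Mitf was at -0.30 (SE 0.13, 95% interval -0.56 to -0.03). The test of whether the Ndrg1 difference itself depended on the Mitf label called 0 of 7 members by edgeR (0.39% of all genes), 1 with an unadjusted p under 0.05 and 1 by DESeq2. That member was Flcn, whose Ndrg1 difference was smaller by 0.31 under the Mitf label (estimate -0.31, SE 0.09, 95% interval -0.49 to -0.12; edgeR adjusted p = 0.109, DESeq2 adjusted p = 0.0161). Without control replicate 3 or Ndrg1 replicate 3 edgeR called it, with adjusted p = 0.0477 and 0.0385. The comparisons of dataset 8 share libraries, so their values stand side by side and are not independent.

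Markers of other cells moved with the Ndrg1 label. Of 12 macrophage markers 11 were higher and 0 lower in Ndrg1 libraries (median change 2.16), and their summed level was 3497 to 4520 CPM there, 3610 to 4905 in Mitf-Ndrg1 libraries, 556 to 722 in controls and 562 to 700 in Mitf libraries. Of 10 Schwann cell markers 10 were lower, with summed levels of 48196 to 61770 CPM in Ndrg1 libraries against 158813 to 188149 in controls. Of 9 mast cell markers 4 were higher, and 3 of the 4 tested osteoclast markers were higher and 1 lower, with Ocstamp at 0 in the controls. The 7 endothelial markers summed to 179 to 203 CPM in Ndrg1 libraries against 300 to 352 in controls. Their sums were 227 to 279 CPM in Mitf-Ndrg1 libraries against 319 to 366 in Mitf libraries. In Mitf-Ndrg1 against Mitf libraries 11 of 12 macrophage, 6 of 9 mast cell, 3 of 4 tested osteoclast and 6 of 6 adipocyte markers were higher, and 10 of 10 Schwann cell and 5 of 7 endothelial markers lower. The part of these cells in the changes of Tfec, Flcn, Fnip1, Fnip2 and Mitf was not tested.

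**Figure D5:**
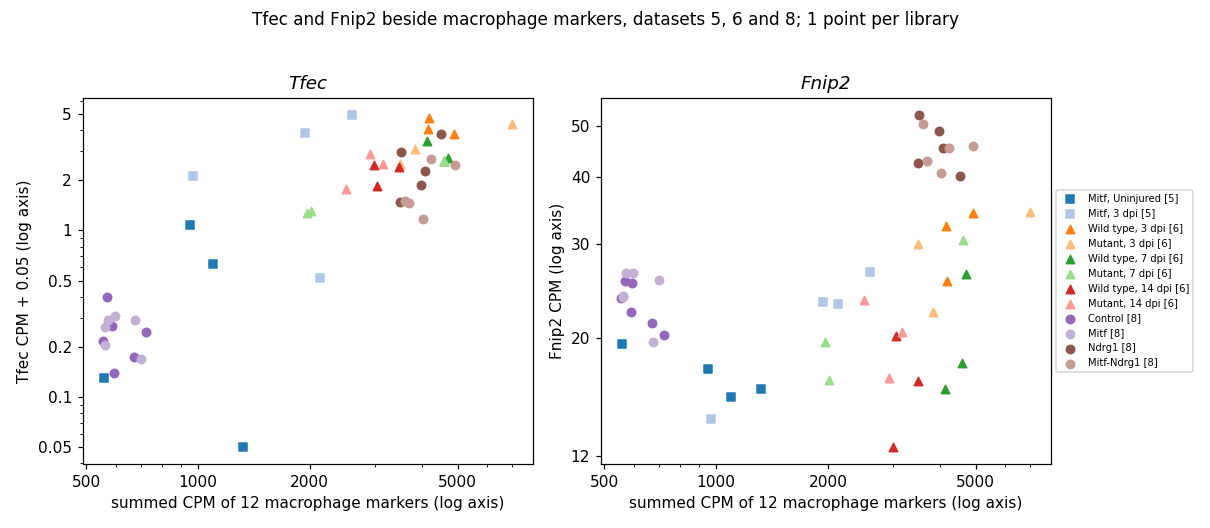
Tfec (left) and Fnip2 (right) CPM against the summed CPM of 12 macrophage markers (log axes; 0.05 added to Tfec so that 0 can be drawn), 1 point per library of datasets 5, 6 and 8, with shapes by dataset. The Ndrg1 and Mitf-Ndrg1 libraries lie together at macrophage sums of 3497 to 4905 CPM, with Fnip2 at 40.2 to 52.4 and Tfec at 1.11 to 3.74 CPM. Dataset 6, at macrophage sums of 1964 to 7016 CPM, has Fnip2 at 12.4 to 34.4 and Tfec at 1.23 to 4.64 CPM. Dataset 7, not drawn, had Fnip2 at 32.8 to 44.4 CPM at macrophage sums of 1676 to 2853 CPM. The datasets were normalized separately, and a difference between them was not tested.

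Across the 82 libraries, centred on the mean of each dataset, the genes most like Tfec in level were Ncf1, a subunit of the phagocyte oxidase (Pearson r = 0.84), Arhgdib (0.83), and Hmox2, a heme oxygenase (0.83). For Fnip2 they were Slc15a3, a lysosomal peptide and histidine transporter (0.84), C3ar1, the receptor of the complement peptide C3a (0.82), and Abcc3, an organic anion exporter (0.82). For Fnip1 Gpr34, a lysophospholipid receptor of microglia and macrophages, led with 0.71, for Flcn Gramd1a, a sterol transfer protein, with 0.78, and for Tfeb Stk40, a kinase-like protein, with 0.78. Tfe3 was most like Arhgap17 (0.63) and Mitf most like Aftph (0.51). Of 11142 genes ranked, Mitf thus had the weakest best match of the 7. Among the members the highest values were those of Flcn with Fnip2 (0.60) and Tfec with Fnip2 (0.54). The libraries share groups, depth and cell make-up, so these are descriptions.

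Genes of the pathway moved in both directions in the Ndrg1 libraries. Of 33 tested genes of the Rag and mTORC1 control list, 6 were higher and 14 lower (median -0.14). Rragb, a Rag GTPase, fell by 1.61 (SE 0.15), Tsc2, the GTPase-activating subunit of the TSC complex, by 0.63 (SE 0.09), Rptor, the mTORC1 scaffold raptor, by 0.92 (SE 0.13) and Tsc1 by 0.48 (SE 0.08). Of 36 tested lysosome and autophagy genes with CLEAR elements, 15 were higher and 13 lower (median 0.04). Gpnmb, a glycoprotein of lysosomes and macrophages, rose by 5.45 (SE 0.16), Atp6v0d2, a proton pump subunit of macrophages and osteoclasts, by 5.24 (SE 0.24), and the protease genes Ctsd by 1.93 (SE 0.09) and Ctsb by 1.70 (SE 0.07). Both shares called lie beside 60.5% of all genes.

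With the Mitf label the same contrast gave 7 higher and 13 lower of 33 in the first list and 17 higher and 9 lower of 36 in the second, beside 57.6% of all genes. Of the pigment cell targets of MITF, 2 of 4 tested were higher and 1 lower in each of the 2 comparisons: Pmel, a melanosome fibre protein, fell by 1.91 (SE 0.27) in Ndrg1 against control, while Rab27a, which moves melanosomes, rose by 1.24 (SE 0.21) and Met, the receptor of hepatocyte growth factor, by 0.59 (SE 0.14). By the Mitf label against control none of the 3 lists had a called gene, where only 0.00629% of all genes were called.

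Dataset 5 compared nerves 3 days after injury with uninjured nerves, all labelled Mitf, and no member was called. By edgeR 0 of 7 members was called, where 22.1% of 15245 genes were (11.7% higher and 10.4% lower), 2 had an unadjusted p under 0.05, and DESeq2 called 1. Mitf stood at 14.3, 13.3, 13.4 and 13 CPM uninjured and at 5.81, 12.1, 6.2 and 10.6 CPM at 3 days, without overlap, as for 28.4% of all genes. The change was -0.64 (SE 0.26, unadjusted p = 0.0341, edgeR adjusted p = 0.107).

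Tfec stood at 1.02, 0.08, 0.579 and 0 CPM uninjured and 2.08, 4.88, 3.77 and 0.465 CPM at 3 days, with overlap. The library at 0 allows up to 0.0921 CPM, 3 counts, by counting error alone. The change was 2.71 (SE 1.19, 95% interval 0.07 to 5.36, edgeR adjusted p = 0.13), and DESeq2 gave an adjusted p of 0.0457. Fnip2 was at 0.35 (SE 0.20, edgeR adjusted p = 0.25) and, without replicate 1 of the injured nerves, at 0.51 (adjusted p = 0.0408). The injured replicates summed to 967, 2602, 1942 and 2127 CPM of macrophage markers, of which 3 of 12 were higher, against 557 to 1318 CPM in uninjured nerves, and 5 of 10 Schwann cell markers were lower. Their part in these values was not tested.

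Of 36 CLEAR genes 13 were higher and 1 lower at 3 days (median 0.23), beside 11.7% of all genes higher and 10.4% lower. They were led by Atp6v0d2 (4.00, SE 0.45), Cd63, a late endosomal tetraspanin (1.05, SE 0.15), Hexa, a hexosaminidase subunit (0.77, SE 0.11), and Ctsd (1.04, SE 0.16). Of 33 Rag and mTORC1 genes 4 were higher and 3 lower, beside 22.1% of all genes called: Lamtor4 (0.79, SE 0.13) and Lamtor2 (0.52, SE 0.12), subunits of the Ragulator, and Sec13 (0.44, SE 0.10) rose, and Sesn1, a leucine sensor, fell by 0.83 (SE 0.11).

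In the wild type nerves of dataset 6 the level of Flcn and Tfeb fell between 3 and 7 days. Of 7 members 0 were higher and 2 lower, where 39.1% of all 15852 genes were called, 19.4% higher and 19.6% lower. Flcn stood at 26.2, 34.5 and 25.2 CPM at 3 days and 18.7, 18.2 and 22.3 CPM at 7 days, without overlap (-0.54, SE 0.14, edgeR adjusted p = 0.00703). Tfeb stood at 28.8, 32.3 and 30.6 and at 15, 17.8 and 25.8 CPM, also without overlap (-0.65, SE 0.24, edgeR adjusted p = 0.0454).

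The call of Tfeb was lost without replicate 1, 2 or 3 at 3 days or replicate 1 or 2 at 7 days, with estimates of -0.68 to -0.50 and adjusted p of 0.0741 to 0.169. That of Flcn was lost without wild type replicate 2 at 3 days (-0.37, adjusted p = 0.0513). Mitf went from 7.09, 7.99 and 7.15 to 5.13, 5.57 and 4.57 CPM, without overlap, as for 56.2% of all genes, and its change of -0.54 (SE 0.24, edgeR adjusted p = 0.088) was not called. Of the Schwann cell markers 7 of 10 were lower at 7 days and of the fibroblast markers 6 of 7 higher. Skeletal muscle markers rose between these days in 3 of 8 cases, and summed to 259 to 1859 CPM at 3 days and 2706 to 30878 CPM at 7 days. With a muscle covariate both were still called, at -0.70 for Flcn (edgeR adjusted p = 0.0026) and -0.98 for Tfeb (edgeR adjusted p = 0.008). The muscle sums of the 2 days did not overlap, so this covariate cannot be separated from day. With a sex covariate that of Tfeb was lost (-0.64, adjusted p = 0.0613) and Fnip2 was called (-0.69, adjusted p = 0.0425).

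In the Mutant nerves Flcn, Mitf and Tfec fell over the same days: 3 of 7 members were lower and 0 higher, where 33.4% of all genes were called, 16.2% higher and 17.2% lower, and 59% had groups that did not overlap. Flcn went from 30.7, 26.5 and 28 to 16.9, 22.1 and 17.8 CPM (-0.58, SE 0.14, edgeR adjusted p = 0.00491), without overlap. Mitf went from 6.9, 4.89 and 5.59 to 3.6, 4.7 and 1.92 CPM (-0.76, SE 0.25, edgeR adjusted p = 0.026), without overlap. Tfec went from 4.28, 2.47 and 3.01 to 1.25, 2.56 and 1.23 CPM (-0.95, SE 0.30, edgeR adjusted p = 0.0244), with overlap.

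Macrophage markers fell in 5 of 12 cases over these days, from sums of 3497 to 7016 CPM to sums of 1964 to 4605 CPM, and 4 of 8 skeletal muscle, 6 of 7 fibroblast and 7 of 7 endothelial markers rose. The part of either in these changes was not tested. Without Mutant replicate 1 at 7 days, the library with the high Schwann cell sum, the calls of Mitf (-0.79, adjusted p = 0.0582) and Tfec (-0.76, adjusted p = 0.104) were lost. The same held without Mutant replicate 3 at 7 days (-0.48, adjusted p = 0.101 for Mitf and -0.77, adjusted p = 0.108 for Tfec) and without Mutant replicate 1 at 3 days (-0.60, adjusted p = 0.113 and -0.68, adjusted p = 0.122). Flcn was called in each of these. With a sex covariate none of the 3 was called (adjusted p = 0.0654 for Flcn, 0.108 for Mitf and 0.125 for Tfec). With a muscle covariate Mitf was lost (-0.83, adjusted p = 0.097) and Tfeb was called (-0.97, adjusted p = 0.0324). Here too the muscle sums did not overlap between the days (5.2 to 263 and 1188 to 2641 CPM). With the compared groups alone Mitf (adjusted p = 0.0903) and Tfec (adjusted p = 0.0711) were lost and Tfeb was called (-0.40, adjusted p = 0.0258). Tfe3, not called in the main test, was called lower by DESeq2 (-0.57, DESeq2 adjusted p = 0.0411). By edgeR it was called without Mutant replicate 1 at 7 days (-0.80, edgeR adjusted p = 0.0202).

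Between 7 and 14 days no member was called in wild type nerves (edgeR 0 of 7, where 7.41% of all genes were called, 2.52% higher and 4.9% lower; 1 had an unadjusted p under 0.05, DESeq2 called 0). That member was Tfeb (0.54, SE 0.24, edgeR adjusted p = 0.14), which edgeR called without wild type replicate 1 at 14 days (0.76, adjusted p = 0.0469). In Mutant nerves 1 of 7 was higher and 0 lower, where 17.7% of all genes were called, 8.55% higher and 9.16% lower, and 30% had groups that did not overlap. Flcn went from 16.9, 22.1 and 17.8 to 26.1, 26.4 and 27.2 CPM, without overlap, a change of 0.49 (SE 0.14, edgeR adjusted p = 0.0273). The call was lost without Mutant replicate 1 or 3 at 7 days (0.40 and 0.44, adjusted p = 0.116 and 0.0986) and without replicate 1 or 2 at 14 days (0.50 and 0.49, adjusted p = 0.0525 and 0.0586). With a muscle covariate the change was 0.30 (adjusted p = 0.246), beside muscle sums of 1188 to 2641 CPM at 7 days and 5486 to 142728 CPM at 14 days, without overlap. Mitf went from 3.6, 4.7 and 1.92 to 6.73, 4.85 and 5.24 CPM, also without overlap (0.72, SE 0.25, edgeR adjusted p = 0.0561), and was called without Mutant replicate 2 at 7 days (1.01, adjusted p = 0.0242) or replicate 3 at 14 days (0.78, adjusted p = 0.0435).

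Between Mutant and wild type nerves no member passed the test at any day: at 3 and 7 days 0% of all genes were called, and at 14 days 8.29% were (7.05% higher and 1.24% lower). At an unadjusted p under 0.05 there were 0, 2 and 2 members, and DESeq2 called 0, 0 and 1. At 14 days Tfe3 stood at 43.9, 48.9 and 43.7 CPM in wild type and 67.7, 61.7 and 94.9 CPM in Mutant nerves, without overlap, as for 24.8% of all genes. Its change was 0.72 (SE 0.22, 95% interval 0.24 to 1.19, edgeR adjusted p = 0.0586; DESeq2 adjusted p = 0.0275). Without Mutant replicate 2 at 14 days, the library with the most muscle RNA, edgeR called it (0.83, adjusted p = 0.0192).

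Flcn at 14 days stood at 18.3, 21 and 21.1 CPM in wild type and 26.1, 26.4 and 27.2 CPM in Mutant nerves, without overlap (0.40, SE 0.14, edgeR adjusted p = 0.0843), and was called with the muscle covariate (0.43, adjusted p = 0.0497) and with the sex covariate (0.46, adjusted p = 0.047). At 7 days Mitf was at -0.58 (SE 0.25, edgeR adjusted p = 0.352) and Tfec at -0.77 (SE 0.30, edgeR adjusted p = 0.323), Mutant minus wild type. Whether the Mutant difference changed with time was tested against 3 days: 0 of 7 members was called at 7 days (0% of all genes) and 0 of 7 at 14 days (0.0568% of all genes), with 0 and 1 at an unadjusted p under 0.05 and 0 by DESeq2 in both.

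Of 36 CLEAR genes 2 were higher and 18 lower in wild type nerves and 2 higher and 14 lower in Mutant nerves between 3 and 7 days (medians -0.61 and -0.41), beside 19.6% and 17.2% of all genes lower. Sqstm1, the autophagy receptor p62, fell by 1.52 (SE 0.19) in wild type and by 1.40 (SE 0.19) in Mutant nerves. Cln3, a lysosomal membrane protein, fell by 1.45 (SE 0.19) and by 1.28 (SE 0.19). Of 33 Rag and mTORC1 genes 3 were higher and 6 lower in wild type and 1 higher and 8 lower in Mutant nerves, beside 39.1% and 33.4% of all genes called. Rptor fell by 0.85 (SE 0.17) and 0.73 (SE 0.17), and Nprl3, a subunit of the GATOR1 complex, by 0.79 (SE 0.17) and 0.67 (SE 0.17).

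Between 7 and 14 days 12 of 36 CLEAR genes were lower and 0 higher in Mutant nerves, beside 9.16% of all genes lower and 8.55% higher, among them Hgsnat, a lysosomal acetyltransferase (-0.79, SE 0.12). Of the 7 members 6 had positive estimates over the same days, with a median of 0.46 against 0.05 over all genes. Only Flcn was called, and that call was lost under several alternatives. A link between the members and the CLEAR genes was not tested. At 14 days 3 of 33 Rag and mTORC1 genes were higher and 0 lower in Mutant than in wild type nerves, beside 7.05% of all genes higher and 1.24% lower. They included Depdc5, a GATOR1 subunit (0.92, SE 0.21), and Tsc1, the stabilising subunit of the TSC complex (1.20, SE 0.21).

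In Fig4 -/- nerves the members were not called at either age. At P12, by edgeR 0 of 7 was called (3.03% of 14338 genes were, 1.87% higher and 1.16% lower), 1 had an unadjusted p under 0.05, and DESeq2 called 0. Flcn stood at 11, 11.6 and 11.9 CPM in Fig4 +/+ and at 13.6, 18.6 and 17 CPM in Fig4 -/- nerves, without overlap, as for 23.7% of all genes. Its change was 0.51 (SE 0.21, 95% interval 0.05 to 0.98, edgeR adjusted p = 0.242).

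Fnip2 was at 0.43 (SE 0.25) and Fnip1 at 0.31 (SE 0.19) in the same comparison, while Mitf was at -0.26 (SE 0.22; 95% interval -0.74 to 0.22). At P4 by edgeR 0 of 7 was called (0.00672% of 14888 genes, while 3.94% had groups that did not overlap), 0 had an unadjusted p under 0.05 and DESeq2 called 0. Estimates at P4 lay between -0.30 (Tfec, SE 0.49) and 0.19 (Flcn, SE 0.13). The difference in the Fig4 effect between the ages called 0 of 7 (edgeR and DESeq2; 0.167% of all genes) and 0 at an unadjusted p under 0.05, and age cannot be told apart from dataset there.

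In Fig4 -/- nerves at P12 genes of the CLEAR and pigment cell lists were called, while none of the members was. The activity of the factors was not measured. Of 36 CLEAR genes 11 were higher and 0 lower (median 0.41, against 0.00 over all genes), beside the 3.03% of all genes. Gpnmb rose by 5.27 (SE 0.37), Atp6v0d2 by 4.39 (SE 0.27), Cd63 by 1.35 (SE 0.11) and Ctsd by 1.23 (SE 0.14). Of 5 tested pigment cell targets 3 were higher, Pmel (5.17, SE 0.31), Tyrp1, an enzyme of melanin synthesis (3.99, SE 0.31), and Met (1.23, SE 0.14). In the Rag and mTORC1 list 1 of 33 was higher, Rragd, the RagD GTPase (1.18, SE 0.26), and 1 lower, Deptor, an mTOR inhibitor (-0.49, SE 0.12). Of 12 macrophage markers 7 were higher too, with sums of 869 to 1129 CPM in Fig4 -/- and 537 to 650 CPM in Fig4 +/+ nerves, and their part in these changes was not tested.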

How the data were processed

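Libraries were made with a stranded mRNA kit from total RNA of quick-frozen sciatic nerve, per the labels' protocols. The authors deposited estimated counts for each gene. Kallisto and build mm10 are named per the submitters' processing notes. Not given in the sources used here are its version, the annotation and how transcripts were summed. The unused columns numbered 0.

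Estimated counts were rounded, and every dataset was analysed by itself. Genes that passed filterByExpr (minimum count 10) entered edgeR 4.0.16 under R 4.3.3 with TMM scaling and its robust quasi-likelihood test, two-sided. A gene was called at a Benjamini-Hochberg adjusted p under 0.05 over all genes of its comparison. Datasets 6 and 8 were fitted over all their groups, and 1 further fit joined both Fig4 datasets for their interaction. Each SE is the size of the log2 change over the root of its F value. Likeness used log2 of CPM + 2, centred per dataset, among genes with a mean of at least 1 CPM in every dataset.

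The members and lists were chosen with earlier results of these data known. Named are the members, up to 4 genes per pathway list taken by p among its called genes, smallest first, and up to 3 most similar genes per member; some list genes are not reported here. The alternatives tried were DESeq2 1.42.0, RLE scaling, no filter on low counts, a block by replicate number, covariates for muscle or sex, the compared groups alone, and each library left out. Replicate numbers come from the labels. Every same-numbered pair correlated over 0.1 in Mitf minus DhhCre at P21 (0.111 to 0.358) and in Egr2Cre Mitf minus Mitf (0.211 to 0.482), and in no other of the 17 pairwise comparisons. Counts of all 124 replicate pairs differed beyond sampling noise (chi-square per degree of freedom of 9.61 or more). The test was checked on simulated data.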

Additional observations from a re-analysis of the deposited data

Results flagged for a closer look

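In the groups of 4 to 6 libraries, 6 of 56 sets of a gene and a group had a highest or lowest library far from the next one; chance alone flags about 1 in 20 such sets. Tfeb had 4 of them. It stood at 30.2 CPM in Mitf replicate 5 at P21 (next 23.7) and at 33.5 CPM in uninjured replicate 2 (next 29.8). It stood at 49.8 CPM in injured replicate 3 of dataset 5 (next 27.6) and, as the lowest value, at 12.7 CPM in Ndrg1 replicate 3 (next 28.1). Tfec stood at 0.768 CPM in DhhCre replicate 4 at P21 (next 0.299), on 14 counts. Flcn stood at 20.1 CPM in Mitf replicate 1 at P21, the lowest of its group (next 25.3).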

How the results depend on the processing

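No called member changed direction under any alternative. The call of Mitf at P21 and those of Tfec, Flcn, Fnip1 and Fnip2 in Ndrg1 against control held under every alternative run, as did those of Tfec, Fnip1 and Fnip2 in Mitf-Ndrg1 against Mitf. The number of members called changed elsewhere, and the cause was not tested. The comparison of injured with uninjured nerves went from 0 to 1 with the sex covariate and with DESeq2, by Tfec. Mutant at day 14 against day 7 went from 1 to 0 without the low-count filter, with the muscle covariate and for the compared groups alone, and to 2 with DESeq2, which added Mitf. Mutant against wild type at 14 days went from 0 to 1 with the muscle covariate and the sex covariate, by Flcn, and with DESeq2, by Tfe3. Mutant at day 7 against day 3 went from 3 to 0 with the sex covariate and to 4 with DESeq2, which added Tfe3. For the compared groups alone Tfeb took the place of Mitf and Tfec there. Wild type at day 7 against day 3 went from 2 to 4 with DESeq2, which added Tfe3 and Fnip2. It also went to 4 for the compared groups alone, which added Mitf and Fnip2. An unchanged number can hide a change of members, as with the sex covariate in wild type nerves, where Fnip2 took the place of Tfeb. Mitf against control and the interaction of Ndrg1 with the Mitf label each went from 0 to 1 with DESeq2, by Mitf and by Flcn.

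With each library left out in turn the number ran from 0 to 1 for injury, for wild type at day 14 against day 7, for Mutant against wild type at 14 days and for the interaction of Ndrg1 with the Mitf label. It ran from 0 to 4 for wild type at day 7 against day 3, from 1 to 3 for Mutant at day 7 against day 3, from 0 to 3 for Mutant at day 14 against day 7 and from 3 to 6 for Mitf-Ndrg1 against Mitf. With the replicate number as a block the numbers were 1 at P21, 2 and 3 for day 7 against day 3 in wild type and Mutant nerves, 1 for Mutant at day 14 against day 7, 4 for Ndrg1 against control, 4 for Mitf-Ndrg1 against Mitf and 0 in every other comparison; Flcn in Mitf-Ndrg1 against Mitf was the 1 call it changed. In the 15 comparisons where not every pair correlated over 0.1, the same-numbered correlations ran from -0.80 to 0.66, and the samples share only a number. Tfec rests on few counts, 2 to 7 per control library of dataset 8, and dataset 6 on 3 libraries per group.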
